A study of Mus musculus with 6 samples.

Results

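Tcf7 and Lef1 are the genes that were removed in the deficient mice of this study, and this account follows the co-repressor scaffold mSin3A over their own loci. Members were all enriched regions (islands) in the deposited lists that touched a window of 105 kb around Tcf7 on mouse chromosome 11, from 52030000 to 52135000, or a window of 135 kb around Lef1 on chromosome 3, from 130800000 to 130935000 (build mm9). There were 62 such islands of 54058 in all, 23 at Tcf7 and 39 at Lef1. Tcf7 lies at about 52065900 to 52096600 on the minus strand and Lef1 at about 130813300 to 130927300 on the plus strand. These extents came with the windows, not from the deposited files, and distances from a gene start below share their rounding.

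CD8 T cells with high surface TCRbeta were sorted from spleen, and mSin3A chromatin immunoprecipitation with sequencing (ChIP-seq) was done in a condition 1 and a condition 2 that the labels do not explain. WT cells came from wild-type mice, and the deficient cells, of genotype Tcf1-/-Lef1-/-, from mice in which CD4-Cre deleted both factors. The sources used here do not give ages, strain, the number of animals, the Cre status of the controls or the exons removed. CD4-Cre acts during thymic development, so the deletion precedes the peripheral cells studied. Each genotype and condition is 1 library, so no difference has a replicate check. Ranges in brackets are exact (Clopper-Pearson) 95% intervals that cover counting error only. The 4 lists held 11151 to 15954 islands with 1792952 to 1917097 island reads, and the 2 input libraries were not analysed here. Marker genes of T cells or of other cells could not be looked up, because the annotation at hand is on another build.

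Tcf7 encodes TCF-1 and Lef1 encodes LEF1, HMG-box transcription factors that bind the same kind of DNA site and have overlapping roles in T cell development. Both can act with beta-catenin or with Groucho/TLE co-repressors. mSin3A carries no catalytic activity of its own and holds a histone deacetylase complex to which many DNA-binding proteins attach. An island is a stretch in which neighbouring windows of ChIP signal were joined by the authors' caller, and its count is the number of reads in it.

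In both WT libraries islands covered 1 coding exon of each gene that no island covered in either deficient library. These were 2 of the 14 exons called in both WT libraries (14.3%). Of the bases called in both WT libraries over the genome, 15.2% were called in neither deficient library. The like shares of bases were 1.68% in the Tcf7 window and 12.0% in the Lef1 window. No share of exons was computed over the genome. Neither of the 2 exon calls held under every alternative. Joining islands within 2 kb closed the gap at Tcf7. Keeping the upper 50% of each list by reads removed the WT island at Lef1. Both outcomes were fixed by construction, the first by gaps of 1000 and 1200 bp and the second by the island's low read rank. Neither is therefore a test of the calls. The exons are shown so that the places of these calls can be seen. They were cut by exon length from the GENCODE M21 transcripts Tcf7-202 and Lef1-201, whose annotation is on GRCm38, 5′ to 3′ on the coding strand. The exon numbers are those of these transcripts. The first is exon 4 of Tcf7, 112 bases, followed by exon 9 of Lef1, 108 bases, and by exon 9 of Tcf7, the exon of the same number and length, as a comparison. Capitals in the exon 9 sequences mark the bases that differ between the genes.
Tcf7 exon 4: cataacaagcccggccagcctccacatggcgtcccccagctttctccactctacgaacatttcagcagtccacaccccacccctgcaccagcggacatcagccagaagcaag
Lef1 exon 9: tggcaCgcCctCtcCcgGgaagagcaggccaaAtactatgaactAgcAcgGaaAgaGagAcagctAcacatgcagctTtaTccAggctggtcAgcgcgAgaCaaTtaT
Tcf7 exon 9: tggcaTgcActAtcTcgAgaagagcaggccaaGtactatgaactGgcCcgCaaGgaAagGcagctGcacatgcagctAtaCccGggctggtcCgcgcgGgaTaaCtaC

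The exon 9 sequences encode part of the HMG box, the DNA-binding domain of the family. They were identical in 87 of 108 bases (80.6%), and all 21 differences fell on the same position of successive base triplets. Exons of equal number also had equal lengths in 5 cases, among them exons 8, 9 and 10.

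Over Tcf7, mSin3A islands formed one of the most heavily covered stretches in every library. WT condition 1 had 4 islands with 2527 reads over 72600 bp, and WT condition 2 had 2 islands with 2504 reads over 65400 bp. Deficient condition 1 had 9 islands with 2674 reads over 72000 bp, and deficient condition 2 had 8 islands with 2936 reads over 82400 bp. Neither island numbers nor reads overlapped between the genotypes, and both were higher in the deficient libraries. Of the 4658 windows of this length along the genome with an island in every library, 15.6% had more islands and 21.1% more reads in each deficient than in each WT library, so neither order sets Tcf7 apart. Divided by the median ratio of the 5637 regions called in every library, the deficient reads of the whole window were 1.10 times those of WT in condition 1 (1.05 to 1.17) and 1.24 times in condition 2 (1.18 to 1.31). Counting only islands that meet the gene itself turned the condition 1 ratio to 0.839 and took its called length ratio to 0.631. Called length was 0.992 and 1.26 times that of WT, and reads per kb 1.06 (1.01 to 1.12) and 0.935 times (0.886 to 0.986). In these sums islands that cross the window edge were counted whole. Counted by their share of bases inside it, the read ratios were 1.09 and 1.18, and the called length ratio of condition 2 was 1.18. The larger read number of condition 2 went with called length. In read ratio, 56.1% of the shared regions lay as close to the median as the window in condition 2 and 29.6% in condition 1. Those are single regions, whereas the window value is a sum over islands. Of 25092 consecutive windows of the same 105 kb along the genome, only 2 to 16, depending on the library, had as many called bases as the Tcf7 window, and 6 or 7 had as many reads. Between 70.8% and 74.8% of those windows held no called base. For this comparison islands crossing a window edge counted by their bases inside it.

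**Figure D1:**
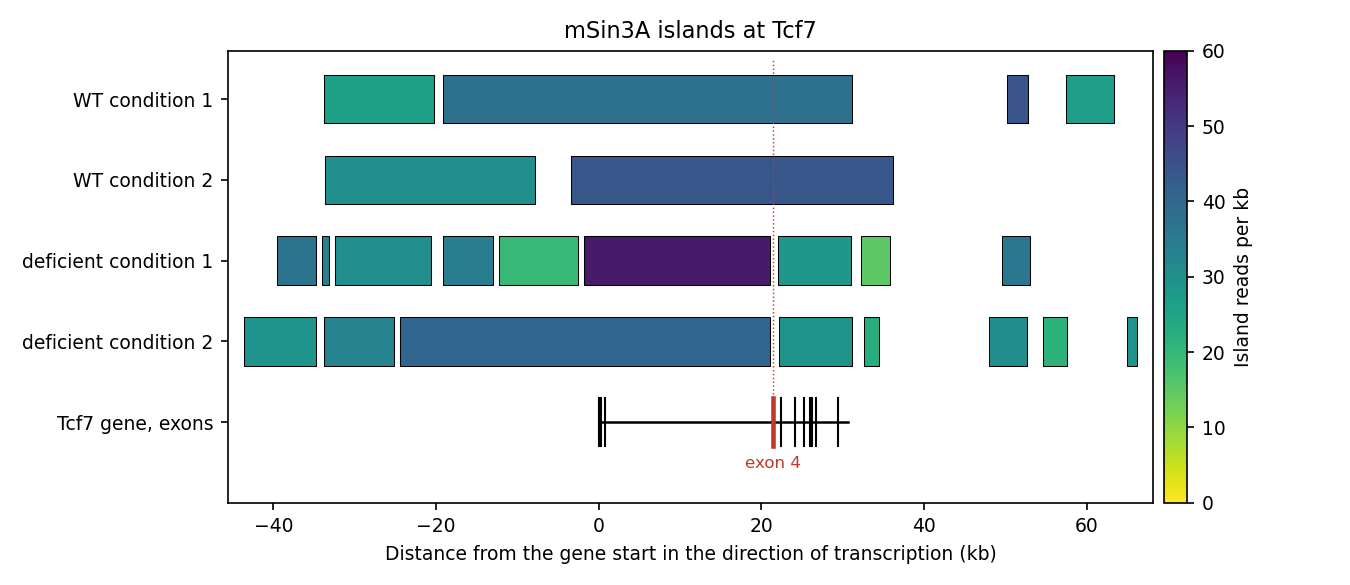
mSin3A islands at Tcf7 in the 4 libraries, as boxes along the distance from the gene start in kb (negative values lie upstream), coloured by reads per kb. The lowest row draws the gene at its stated length with exons at their GRCm38 distances. Both WT rows run without a break over exon 4, drawn in red, where both deficient rows have a gap.

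All 30.7 kb of Tcf7 lay within islands in both WT libraries, and 96.7% and 96.1% in the deficient libraries. The signal went on well upstream of the gene start. Of the 38.4 kb between the start and the window edge, 85.4% and 76.0% were called in WT and 88.0% and 95.3% in deficient cells, in conditions 1 and 2. Downstream of the gene, 25.3% and 15.3% were called in WT and 20.3% and 30.9% in deficient cells. Next to Tcf7 in RefSeq (GRCm38.p6) lie Skp1, which encodes a subunit of SCF ubiquitin ligases, on the downstream side and the long noncoding RNA gene Gm30217 on the upstream side. Which of the flanking islands belong to these genes was not determined.

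The leading Tcf7 island of each library was among the strongest of its list. It held 1904 reads in WT condition 1, from 19.2 kb upstream of the gene start to 31.2 kb downstream of it, and ranked 8th of its list by reads. In WT condition 2 it held 1729 reads from 3.4 kb upstream to 36.2 kb downstream and ranked 10th. Both therefore contain the whole gene. In deficient condition 1 the leading island held 1276 reads and ranked 10th, and in deficient condition 2 it held 1851 reads and ranked 7th. Both of these began 21.0 kb inside the gene and ran toward and past its start, by 1.8 kb in condition 1 and 24.4 kb in condition 2. The start of Tcf7 was thus inside the leading island in every library.

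Read density was highest over the 5′ part of Tcf7 in deficient condition 1, the only library whose islands resolve that part. The deficient condition 1 island from 1.8 kb upstream to 21.0 kb downstream of the start had 56.0 reads per kb, above 95.7% of its list. The remaining 3′ part of the gene had 28.3 reads per kb in the same library, above 54.1% of the list. In deficient condition 2 that 3′ island had 29.7 reads per kb against 40.8 reads per kb for the long 5′ island. The latter reached 24.4 kb upstream of the start, so its density is not that of the 5′ part of the gene alone. In WT cells the gene is one island, at 37.8 and 43.7 reads per kb, so its parts cannot be compared.

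**Figure D2:**
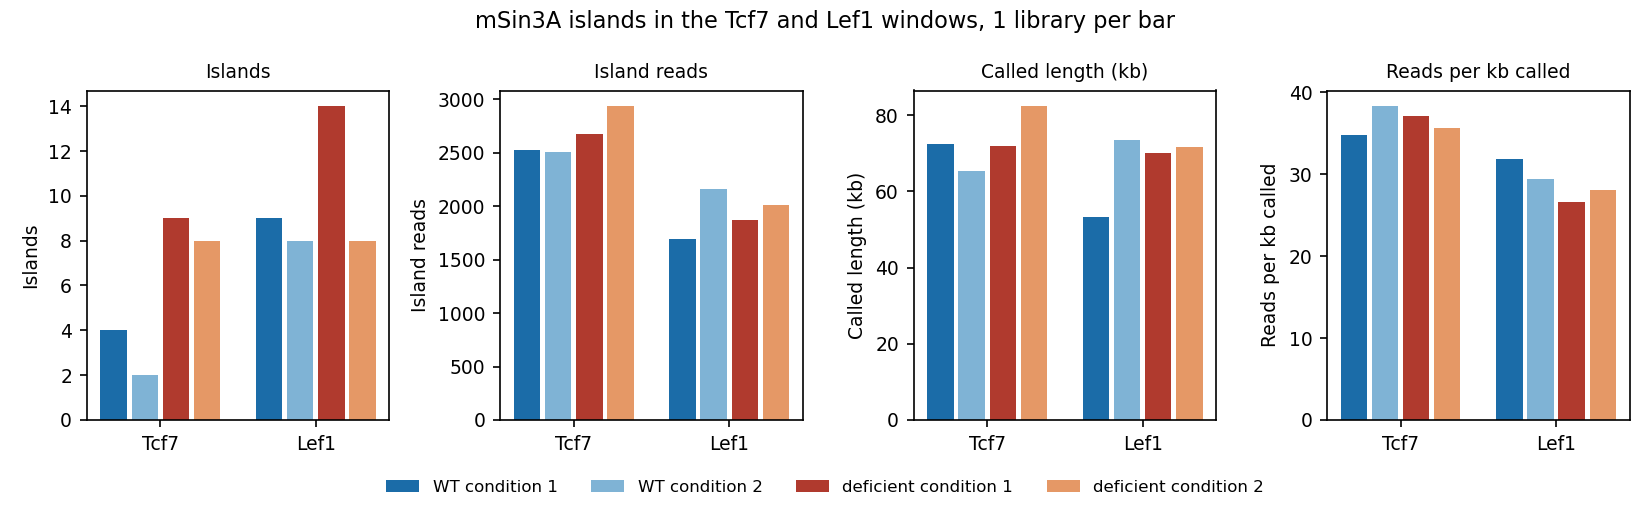
Number of islands, island reads, called length in kb and reads per kb of called length in the Tcf7 and Lef1 windows, with 1 bar for each library. At Tcf7 the island numbers are 4 and 2 in WT and 9 and 8 in deficient cells, while reads per kb stay between 34.8 and 38.3.

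Joining overlapping islands of the 4 lists gave 5 regions in the Tcf7 window. The largest, chromosome 11 from 52060401 to 52130600, was called in all 4 libraries, as were 24% of the 23510 joined regions of the genome. Its reads in conditions 1 and 2 were 2252 and 2504 for WT and 2372 and 2441 for deficient cells. Centred in the same way, the deficient reads were 1.10 times those of WT in condition 1 (1.04 to 1.16) and 1.03 times in condition 2 (0.978 to 1.09). Per kb of called length the ratios were 1.05 and 0.988. The direction in condition 2 comes from the centring: unscaled, the ratio there was 0.975, and scaled by total island reads 0.912, against 1.05 and 1.03 in condition 1. Under each of these scalings the ratio was inside the spread over all regions (SD of the log2 ratio 0.50 and 0.52). By total reads this region ranked 6th of the 5637, and the spread among regions of like size was not computed.

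The same Tcf7 region was broken into more pieces without the factors. It consisted of 2 islands in each WT library, 7 in deficient condition 1 and 4 in deficient condition 2. More islands in each deficient than in each WT library were found in 3.49% of the 5637 regions, and fewer in 0.71%. Of the 543 regions at least 20 kb long, to which this one belongs, 14.9% had more. A break in an island is a stretch of at least 800 bp without enough signal, the shortest distance between neighbouring islands in any list. Deficient lists also held more islands than WT lists in each condition (15954 against 13397, and 13556 against 11151), and their part in the result was not tested.

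One break was shared by the deficient libraries and crossed by both WT islands. It spanned 52074601 to 52075600 in deficient condition 1, a gap of 1000 bp, and 52074401 to 52075600 in deficient condition 2, a gap of 1200 bp. Their upstream edges were the same base, 21.0 kb downstream of the gene start, and the other edges lay at 22.0 and 22.2 kb. In the GRCm38 annotation exon 4 of Tcf7 lies 21.39 to 21.50 kb from the gene start, so at this distance it falls in the gap, 389 bp from the nearest island edge. Distances were measured within each build and no coordinate was carried over. The stated mm9 extent and the annotated gene differ in length by 56 bp, and the placement was the same when counted from the gene end. The other 10 exons of Tcf7 fell within islands in all 4 libraries, exon 5 by a margin of 192 bp.

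This gap was the only place in the Tcf7 window called in both WT libraries and in neither deficient library. It made up 1000 of 59400 bp called in both WT libraries (1.68%), against 15.2% over the genome. Gaps of this kind are not rare in long stretches. Of 55 stretches of at least 20 kb called without a break in both WT libraries, 14 (25.5%) held a gap common to both deficient libraries, and of 29 such stretches in the deficient libraries, 6 (20.7%) held a gap common to both WT libraries. Within a list, 6.30% to 7.48% of the distances between neighbouring islands were 1200 bp or less. ChIP reads cannot come from DNA that Cre removed, and with the deleted exons not stated and the inputs not analysed, missing DNA, less mSin3A and a signal just below the caller's threshold cannot be told apart here. Joining islands of a library within 2 kb closed this gap by construction.

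In the opposite direction, 4200 of 67400 bp (6.23%) at Tcf7 were called in both deficient libraries and in neither WT library, against 20.6% over the genome. Most of it was part of an island 34.8 kb upstream of the gene start. It spanned 52131401 to 52136200 with 178 reads in deficient condition 1 and 52131401 to 52140200 with 254 reads in deficient condition 2, and so crossed the window edge. WT libraries had no island there, though their next islands began at 52142801 and 52142601, just beyond the window, with 622 and 771 reads. The deficient libraries also had islands there, from 52140401 with 612 reads and from 52141801 with 128 reads. Calls thus went on past the window on the upstream side in every library, while on the downstream side the next island lay 97600 to 116800 bp outside it.

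The remaining Tcf7 regions lay 48.0 to 66.2 kb from the gene start, downstream of the gene. The one from 52043601 to 52048600 was called in 3 libraries, with 115 reads in WT condition 1, 124 in deficient condition 1 and 142 in deficient condition 2. WT condition 2 had no island there. The region from 52033201 to 52042000 had 160 reads in WT condition 1 and 64 in deficient condition 2, and the smallest, from 52030401 to 52031600, had 35 reads in deficient condition 2 alone. None of the 3 separated the genotypes. A region missing from a list has an unknown number of reads there, so no fold is given.

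Over Lef1 the islands were more scattered, and the libraries differed more in how much they called. WT condition 1 had 9 islands with 1696 reads over 53200 bp, and WT condition 2 had 8 islands with 2158 reads over 73400 bp. Deficient condition 1 had 14 islands with 1869 reads over 70200 bp, and deficient condition 2 had 8 islands with 2013 reads over 71600 bp. The genotypes overlapped in islands, reads and called length, and WT condition 1 was the lowest library in reads and length. Of 19515 windows of 135 kb along the genome, 10 to 87 had as many called bases as the Lef1 window and 24 to 62 as many reads. Reads per kb of called length were 31.9 and 29.4 in WT and 26.6 and 28.1 in deficient cells, lower in both deficient libraries, as in 18.3% of the 4273 windows of this length with an island in every library.

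**Figure D3:**
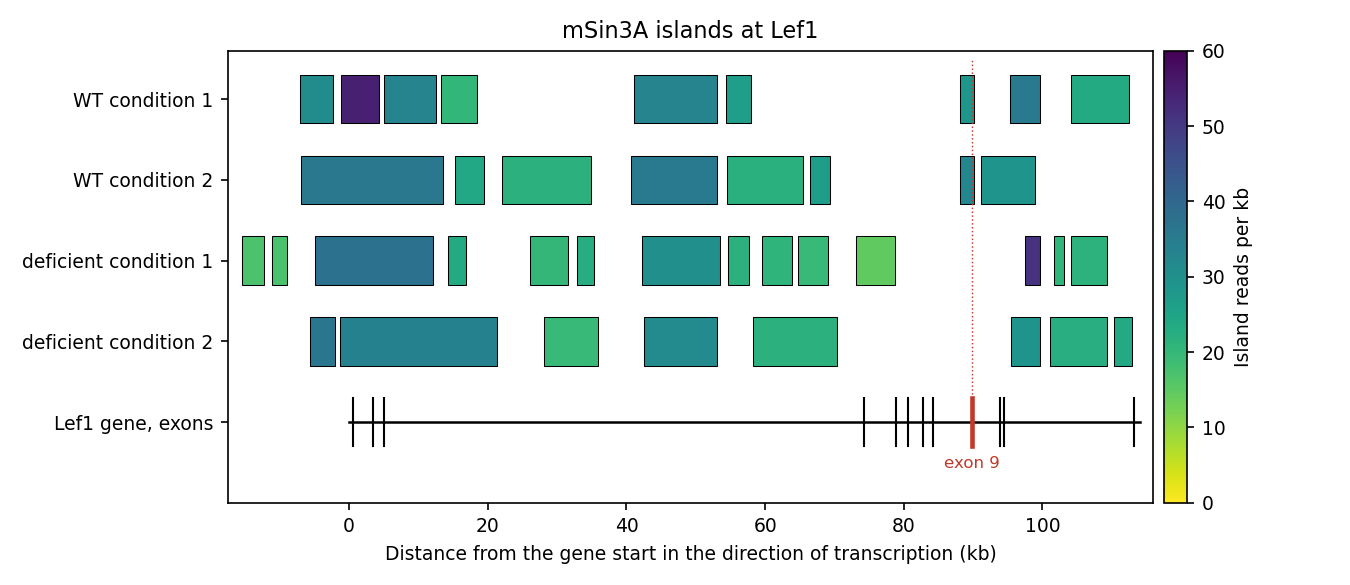
mSin3A islands at Lef1 in the 4 libraries, as boxes along the distance from the gene start in kb, coloured by reads per kb. The lowest row draws the gene at its stated length with exons at their GRCm38 distances. Both WT libraries have a 2000 bp island over exon 9, drawn in red, where the deficient libraries have gaps of 18800 and 25200 bp.

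Of the 114 kb of Lef1, 41.5% and 58.3% were called in WT and 52.5% and 58.5% in deficient cells, and no island reached past the gene end in any library. The nearest islands beyond the window on that side lay 13200 bp to 1410800 bp away. On the upstream side 44.4% and 51.9% of the 13.3 kb before the gene start were called in WT and 60.9% and 36.8% in deficient cells. RefSeq places the long noncoding RNA gene Gm36603 next to Lef1 upstream and Hadh, which encodes an enzyme of fatty acid oxidation, downstream. Relative to the median region, Lef1 reads were 1.15 times those of WT in condition 1 (1.08 to 1.23) and 0.990 times in condition 2 (0.931 to 1.05). Called length was 1.32 and 0.975 times that of WT, and reads per kb 0.831 (0.778 to 0.888) and 0.960 times (0.903 to 1.02). In density, 55.1% and 14.3% of the shared regions lay as close to their median as this. With the upper 50% of each list by reads the read ratios turned to 0.886 and 1.08 and the called length ratio of condition 1 to 0.861. WT condition 2 had 1.18 times the reads of WT condition 1 (1.10 to 1.25), so the change between conditions within WT was as large as the larger change between genotypes.

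Of 10 regions in the Lef1 window, 4 were called in all 4 libraries, against 24% of the 23510 joined regions of the genome. The strongest spanned the gene start, from 130806201 to 130834600. Its reads were 796 and 834 for WT, and 699 and 899 for deficient cells, which were 0.916 times WT in condition 1 (0.827 to 1.02) and 1.14 times in condition 2 (1.04 to 1.26). Unscaled, the ratios were 0.878 and 1.08, and scaled by total island reads 0.858 and 1.01. This region ranked 116th of the 5637 regions by total reads, against 6th for the Tcf7 region. Reads per kb ran from 33.9 to 35.7 in the 4 libraries, so the density over the Lef1 start was close to level while the called length varied.

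Density along Lef1 was not led by the same place in every library. The WT condition 1 island from 1.1 kb upstream to 4.3 kb downstream of the start held 296 reads at 54.8 reads per kb, above 95.3% of its list, the densest of its 9. Islands over the start in the other libraries were longer and had 34.0 to 37.5 reads per kb. In deficient condition 1 the densest island lay near the other end of the gene, 97.5 to 99.7 kb from the start, with 51.4 reads per kb. The short dense island over the start was seen in 1 WT library only and does not separate the genotypes.

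Inside the long first part of the gene, the region from 130854001 to 130866800 had WT reads of 394 and 441 and deficient reads of 336 and 334. It lies about 40.7 to 53.5 kb from the start, between exons 3 and 4, and consisted of 1 island in every library. The deficient reads were 0.890 times WT in condition 1 (0.767 to 1.03) and 0.803 times in condition 2 (0.695 to 0.928), with densities 0.909 and 0.890 times those of WT. Reads were lower in both conditions, as were those of 26.9% of the shared regions by any amount. At least 2-fold fewer reads in deficient cells were seen in 2.77% and 3.23% of all shared regions, and this region was not among them.

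The next region, from 130867601 to 130883600, had WT reads of 96 and 316 and deficient reads of 243 and 260. WT condition 1 stood apart from the other 3 libraries, with 3600 bp called against 11800 to 13800 bp. The ratio in condition 1 was accordingly 2.64 (2.08 to 3.38), past the 2-fold line that 2.8% of shared regions passed upward in that condition. In condition 2 it was 0.873 (0.738 to 1.03), where 2.73% of regions were at least 2-fold higher. Per kb the ratios were 0.769 and 0.95, so the larger read number of condition 1 went with called length and not with density.

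**Figure D4:**
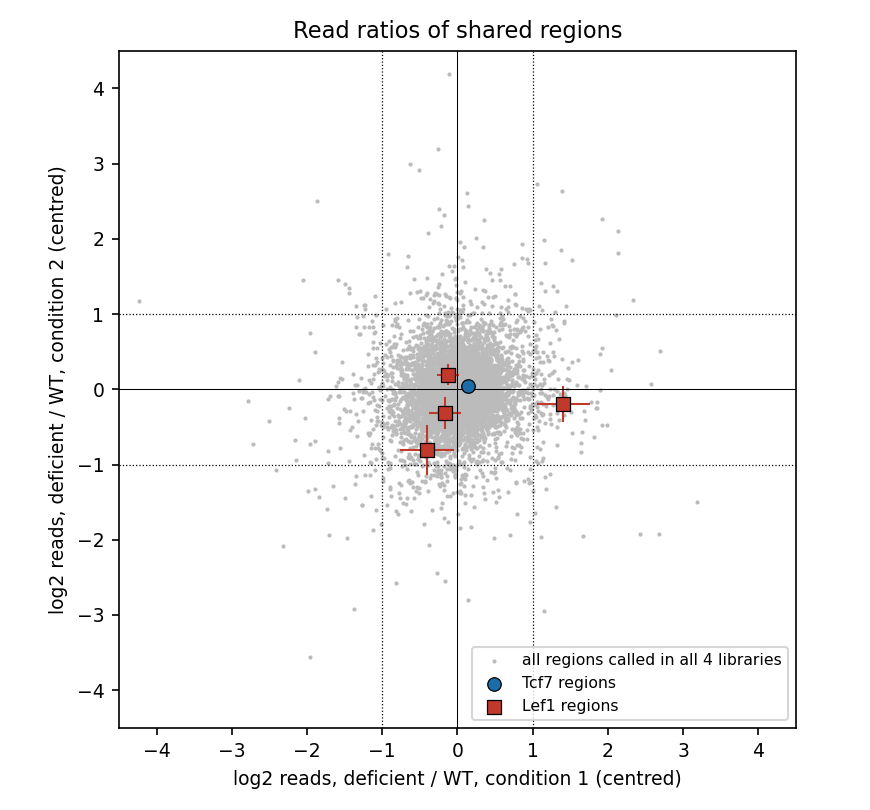
log2 ratio of reads, deficient over WT, in condition 1 (horizontal) against condition 2 (vertical) for the 5637 regions called in all 4 libraries (grey), centred on their median, with the Tcf7 region and the 4 Lef1 regions and their 95% counting intervals. Dotted lines mark 2-fold. The Tcf7 region lies near the centre, 1 Lef1 region passes 2-fold in condition 1 only, and 2 Lef1 regions lie below 0 on both axes.

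In the 3′ part of Lef1, where most of its coding exons lie, an island from 130901401 to 130903400, 88.1 to 90.1 kb from the gene start, was called with exactly the same edges in both WT libraries, with 57 and 65 reads. Neither deficient library had an island over it. Deficient condition 1 had none from 130892001 to 130910800, a gap of 18800 bp, and deficient condition 2 none from 130883601 to 130908800, a gap of 25200 bp. Exon 9 lies 89.82 to 89.93 kb from the gene start in GRCm38, which puts it in this island at 168 bp from its nearest edge. Counted from the gene end that margin was 53 bp, with the same calls. The stated extent and the annotated gene differ by 114 bp.

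Of 182 islands with the same edges in both WT libraries, 17 (9.34%) met no deficient island. Of 275 with the same edges in both deficient libraries, 74 (26.9%) met no WT island. The WT island at Lef1 was the only one of either kind in either window. Its reads were few, above 22.4% and 19.0% of the islands of the WT lists, and it was wider than only 14.2% and 9.08% of them. Its density of 28.5 and 32.5 reads per kb was above 57.4% and 65.8% of the lists. It was thus low in reads and width but not in density. With those read ranks it was, by construction, no longer among the islands when only the upper 50% of each list by reads was kept. The deficient read numbers at this place are unknown, and a signal below the caller's threshold, less mSin3A and missing DNA cannot be told apart.

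The neighbouring region, from 130904401 to 130913000, had fewer reads without the factors in both conditions. WT libraries had 156 and 226 reads there, and deficient libraries 113 and 122. The ratios were 0.756 (0.588 to 0.969) and 0.573 (0.456 to 0.717). Of the shared regions, 26.9% were lower in both conditions by any amount, and a share for falls of this size was not computed. Called length was 0.50 and 0.538 times that of WT. Density was 1.44 times WT in condition 1 and 1.01 times in condition 2, so the smaller read numbers went with shorter islands. WT condition 2 began this region at 91.1 kb from the gene start and WT condition 1 at 95.3 kb, against 97.5 and 95.5 kb in deficient cells.

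Over all 23 exons of the chosen transcripts, 12 lay in islands in all 4 libraries, 10 of them in Tcf7 and 2 in Lef1. Another 4, exons 5 to 8 of Lef1, lay in no island of any library. Those called in both WT and in neither deficient library were 2, exon 4 of Tcf7 and exon 9 of Lef1, and none had the opposite pattern. They are 2 of the 14 exons called in both WT libraries (14.3%), of which 11 are exons of Tcf7. No share of exons was computed over the genome, so this share has no background to be compared with. In bases the share was 1.68% at Tcf7 and 12.0% at Lef1, against 15.2% over the genome. Exon 9 of Tcf7, the counterpart printed above, was inside islands in every library. This reading of exons was chosen after the islands were seen.

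In the Lef1 window 5000 of 41800 bp called in both WT libraries (12.0%) were called in neither deficient library, in 6 stretches, of which the island over exon 9 was the longest with 2000 bp. In the opposite direction it was 2800 of 52800 bp (5.30%) in 3 stretches. The longest of those, 1400 bp from 130915001 to 130916400, lay 101.7 to 103.1 kb from the gene start. Both shares were below those of the genome, 15.2% and 20.6%.

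**Figure D5:**
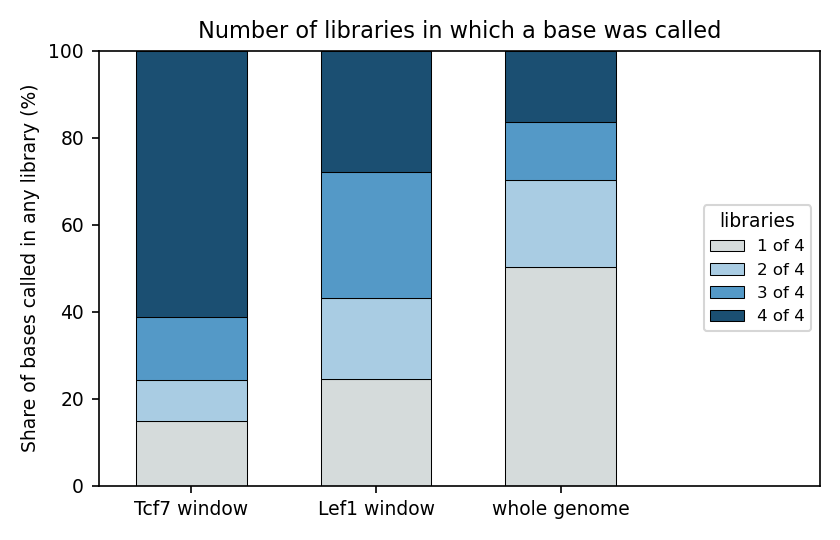
Share of the bases called in at least 1 library that were called in 1, 2, 3 or 4 libraries, for the Tcf7 window, the Lef1 window and the whole genome. Bases called in all 4 libraries make up 61.3% at Tcf7, 28.0% at Lef1 and 16.4% over the genome.

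Other Lef1 regions were called in some libraries only. The one from 130835401 to 130849200, in the first part of the gene, held 276 reads in WT condition 2 and 163 and 152 reads in deficient cells, and had no island in WT condition 1. The one from 130914401 to 130926200, which runs toward the gene end, held 197 reads in WT condition 1 and 141 and 246 in deficient cells, and had no island in WT condition 2. Deficient condition 1 alone had islands of 54 and 38 reads upstream of the gene and of 82 reads from 130886401 to 130892000, over exon 4. At 14.6 to 17.3 reads per kb these 3 islands were among the least dense of their list, above 1.05% to 6.74% of it.

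Bases coincided between libraries more at Tcf7 than at Lef1, and at both more than over the genome. At Tcf7 the WT libraries shared 75.6% of their called bases, the deficient libraries 83.6%, and libraries of different genotype 73.1% to 77.5%. At Lef1 these shares were 49.3%, 60.8%, and 47.1% to 58.3%. Over the genome they were 36.5%, 44.1%, and 34.6% to 35.6%. At neither locus were the WT libraries closer to each other than to every deficient library, though over the genome they were. The deficient libraries were closer to each other than to either WT library at both loci and over the genome.

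Among regions outside the windows, those most like the Tcf7 region in reads, by the largest absolute log2 difference over the 4 libraries, were chromosome 8 from 74782801 to 74894000 (0.23), chromosome 17 from 35293401 to 35388000 (0.23) and chromosome X from 92118601 to 92178600 (0.33). The Lef1 region over the gene start was most like chromosome 8 from 19772001 to 19795000 (0.15), chromosome 4 from 134464001 to 134495000 (0.17) and chromosome 3 from 87933201 to 87972200 (0.17). Most of these were broader or narrower for similar reads, with 28.2 to 39.3 reads per kb for the first set and 30.3 to 63.9 reads per kb for the second.

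The DNA motif CTTTGA, or TCAAAG on the other strand, the core of the site that TCF-1 and LEF1 bind, was looked for in RefSeq promoter windows of GRCm38.p6 that run from 250 bases before a transcript start to 50 after it. It was in 16.0% of 32851 windows, in 0 of 2 windows of Tcf7 and in 1 of 4 windows of Lef1. The Lef1 window with the motif ran from 131156044 to 131156343 and was the farthest downstream of the 4. Those beginning at 131110047, 131110073 and 131112541 had no motif, so the match was not at the first annotated starts of Lef1. The stated start of each gene lay inside islands in all 4 libraries. The match is a description of letters and says nothing of binding.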

How the data were processed

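Reads were aligned with Bowtie2 2.2.5 to mm9 and turned into islands with SICER 1.1, per the submitters' processing notes; caller settings and the use of the inputs: not given in the sources used here. The authors deposited 1 list for each ChIP library with chromosome, start, end and a whole number, read here as the count of reads per island, unscaled. Starts fell on multiples of 200 and ends 1 base short of one, so 1 was added to both for 1-based positions. Overlapping or touching islands were joined across libraries. Read ratios are deficient over WT, divided by the median ratio of regions called in all 4 libraries (log2 -0.06 and -0.09). Density ratios were centred in the same way. Depth is known only as the sum of island reads. No test over samples was made: each genotype and condition is 1 library, and the conditions, which the labels do not explain, were not treated as replicates. The named loci, and the rule for regions most like them, were chosen with earlier results of these data known; the comparisons of shared gaps, exons, island numbers and shares of windows were added after the islands were seen. Gene and marker lists were not used, since no mm9 annotation was at hand. Interval functions were tested on simulated data. Python 3.11.15, numpy 2.4.6, pandas 2.3.3 and scipy 1.17.1 were used.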

Additional observations from a re-analysis of the deposited data

Results flagged for a closer look

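Some ratios of deficient to WT lay on opposite sides of 1 in the 2 conditions, and with 1 library in each group the difference between conditions was not tested. At Tcf7 the called length ratio was 0.992 in condition 1 and 1.26 in condition 2, and the read density ratio was 1.06 and 0.935. At Lef1 the read ratio was 1.15 and 0.990, and the called length ratio 1.32 and 0.975.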

How the results depend on the processing

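Of 64 ratios computed under the alternatives, 50 stayed within the counting interval of the reported value, or within 1.5 times it for called length. No ratio of a whole window passed 2-fold under any of them. Scaled by total island reads, the read ratios became 1.03 and 1.10 at Tcf7 in conditions 1 and 2 and 0.872 at Lef1 in condition 2, and the density ratios in condition 2 became 0.870 at Tcf7 and 0.894 at Lef1. Unscaled, the Tcf7 read ratio of condition 2 was 1.17. Counting only islands that meet the gene itself gave Tcf7 in condition 1 a read ratio of 0.839, a density ratio of 1.27 and a called length ratio of 0.631, because the upstream pieces of the deficient library then drop out, and gave Lef1 in condition 2 a read ratio of 0.925. With the upper 50% of each list by reads, Lef1 had read ratios of 0.886 and 1.08, and in condition 1 a density ratio of 0.969 and a called length ratio of 0.861, so that its read ratios changed sides of 1; fewer islands enter. Joining islands of a library within 2 kb, added after the data were seen, closed the gap over exon 4 of Tcf7 (0 bp in place of 1000) by construction, and raised the Lef1 bases called in both deficient libraries and in neither WT library from 2800 to 4800. With the upper 50% these were 0 bp. The Lef1 bases called in both WT and in neither deficient library were then 2600 in place of 5000, without the island over exon 9. That island falls below this cut by construction, because of its low read rank. The counts of regions called in all 4 libraries, 1 at Tcf7 and 4 at Lef1, were 1 and 3 both with joined islands and with the upper 50%.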
